A study of Acartia tonsa with 26 samples.

Results

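Quiescent eggs of the calanoid copepod Acartia tonsa were compared with 14 h eggs of the same species in organogenesis. The comparison used every gene of both deposited tables that reached a value of 1 or more in at least 3 of the 7 libraries of these groups, which kept 2737 of 9590 genes (28.5%). The quiescent group (n = 3, replicates A, C and D) was kept at 4 °C without oxygen and is labelled 26 h, and its labels give gastrulation as the stage. The 14 h group (n = 4, replicates A, B, C and E) developed without pause at 16.9 °C. Adults in dark 60 L tanks (16.9 °C, salinity 32) laid the eggs of both groups, and each library was built from 0.3 µg of RNA from an assemblage of eggs. Stage, age, temperature and oxygen differ together between the groups and cannot be told apart. The study's design text calls the replicates technical, so the p-values measure the spread between such samples and not that between independent cultures. In RNA from whole eggs, fewer cells of a type and less RNA per cell cannot be told apart.

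Calanoid copepods release subitaneous eggs, which develop at once and hatch as nauplii. When such eggs meet cold or lack of oxygen they can stop and enter quiescence, a resting state imposed by the surroundings that ends when conditions improve. At gastrulation the germ layers form, whereas organogenesis lays down muscle, gut, nerve and the first cuticle of the larva. Early animal embryos run on RNA and protein stored by the mother, with short cell cycles and large stores of histones, before the genome of the embryo takes over.

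The deposited unit is a normalized signal value in which 1 read is worth the same for every gene of a library, and a value of 1 stands for 105 to 112 reads in these 7 libraries. The tested genes held 5916286 to 6401549 reads in quiescent libraries and 4831887 to 5205340 in 14 h libraries. Ranked over the tested genes, the quiescent libraries resembled each other at Spearman rho of 0.857 to 0.906, the 14 h libraries at 0.724 to 0.912, and libraries of different groups at 0.440 to 0.627. The quiescent libraries put more of their summed value into few genes. The 20 most abundant genes of a library took 42.0 to 45.0% of it in quiescent eggs, against 24.0 to 29.2% in 14 h eggs. Fewer of the tested genes reached a value of 1 in quiescent libraries, 1657 to 1846, against 2422 to 2512 in 14 h libraries. These counts follow in part from the choice of genes. Of the tested genes, 660 passed the filter through 14 h libraries alone and 80 through quiescent libraries alone.

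On the log2(value + 1) scale, 411 genes were higher and 1407 lower in quiescent eggs (limma, Benjamini-Hochberg adjusted p under 0.05), which is 15% and 51.4% of the genes tested. These shares are the background for each list below. The authors had selected all of these genes as changing among these samples, so the calls are not independent evidence of change. A total of 80 genes passed the filter through quiescent libraries alone and 660 through 14 h libraries alone, so these had to differ. Any gene described here with no value of 1 or more in one of the groups is among them, and its call is no support. The median log2 change of all tested genes was -0.75, with quartiles of -1.21 and -0.13 and a range of -6.07 to 4.09. This balance depends on the scaling between libraries, which the sources used here do not describe. Median-ratio rescaling moved the median by 0.65 to -0.10 and called 627 genes higher and 513 lower, so that 55% of calls were higher in place of 22.6%. Quantile normalization, edgeR with TMM factors and DESeq2 with its own size factors gave 54.8%, 57.6% and 51.7%. All 4 scalings were estimated from the tested genes alone, which the authors had selected as changing. They cannot decide which balance is right, since they assume that most of these genes, or their distribution as a whole, do not differ. Genes called in the same direction as deposited and under all 4 of these other scalings numbered 395 higher (14.4% of the genes tested) and 279 lower (10.2%). All 4 other scalings moved the median gene upward, by 0.60 to 0.65, so they could remove falls but hardly rises. That a rise held is therefore no added support for it, and the 395 of 411 rises and 279 of 1407 falls that held are not comparable shares. Results below are marked as held under all scalings where they belong to these sets. Leaving out any 1 of the 7 libraries kept the call of 350 of the rises and 895 of the falls.

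**Figure D1:**
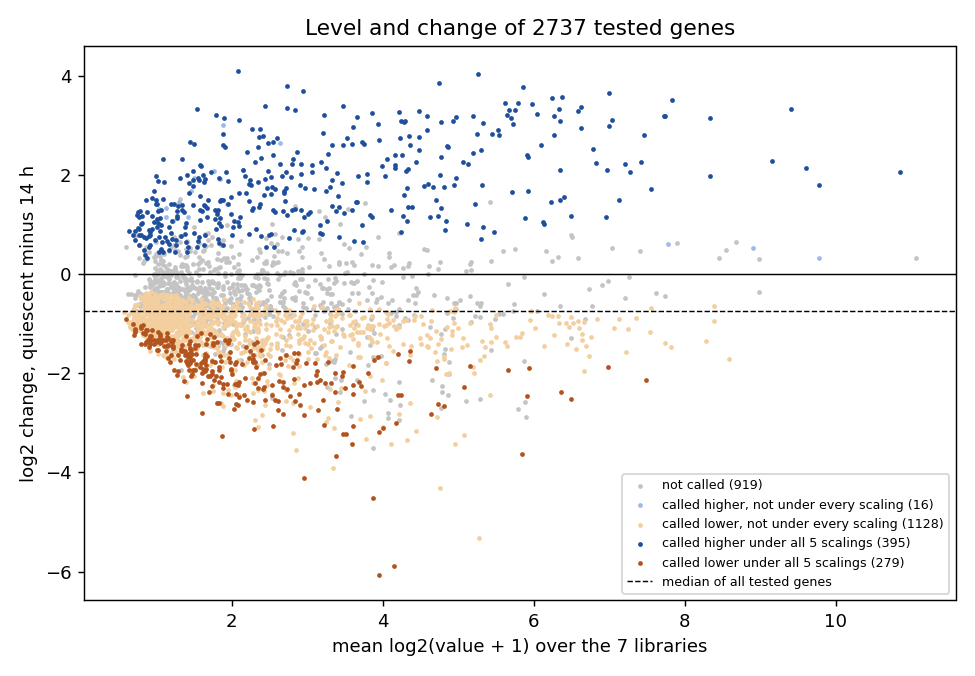
Each point is 1 of the 2737 tested genes, with its mean log2(value + 1) over the 7 libraries on the x axis and its log2 change, quiescent minus 14 h, on the y axis. Dark blue and dark brown mark the 395 rises and 279 falls called under all 5 scalings, pale colours mark genes called as deposited but not under every scaling, and the dashed line is the median of -0.75.

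The sharpest rises belonged to genes with no protein match. Of the 411 genes higher in quiescent eggs 63 had a match (15.3%), against 536 of the 1407 lower genes (38.1%) and 30.2% of all genes tested. DN6266_c0_g1, which codes for a predicted signal peptide and nothing else that was annotated, had values of 19.3, 21.6 and 20.2 in quiescent libraries, against 0.391, 0.303, 0.128 and 0.197 in 14 h libraries. With libraries given in the order A, C, D and A, B, C, E here and below, its quiescent mean was 80 times the 14 h mean and the groups were far apart (log2 change 4.09 ± 0.18, adjusted p = 6.59e-05). DN25611_c0_g1 had values of 184, 179 and 207 in quiescent libraries, against 16.4, 12.3, 9.61 and 6.33 in 14 h libraries, again without overlap (log2 change 4.04 ± 0.31, adjusted p = 1.26e-04). DN5982_c0_g2 had 267, 308 and 211 in quiescent libraries, against 19, 14, 19.3 and 20.2 in 14 h libraries (log2 change 3.78 ± 0.22, adjusted p = 1.08e-04). DN4272_c2_g2 and DN5403_c1_g1 rose by 3.80 ± 0.24 and 3.85 ± 0.38 on the log2 scale. All 5 held under all scalings.

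Abundant transcripts without a match also rose. DN112079_c0_g1 was the most abundant gene higher in quiescent eggs, with 4857, 3864 and 3859 in quiescent libraries, against 986, 871, 1221 and 938 in 14 h libraries (log2 change 2.06 ± 0.16, adjusted p = 1.26e-04). DN3582_c1_g1 stood at 2559, 2531 and 2499 in quiescent libraries, against 396, 214, 310 and 150 in 14 h libraries (log2 change 3.33 ± 0.31, adjusted p = 2.54e-04), a group in which the 14 h libraries varied more than the quiescent ones. DN23686_c0_g1 had 1084, 799 and 879 in quiescent libraries, against 93.7, 88.8, 74 and 65.2 in 14 h libraries (log2 change 3.50 ± 0.19, adjusted p = 1.01e-04), and DN67392_c0_g1 had 715, 667 and 879 in quiescent libraries, against 77.8, 86.8, 85.4 and 77.2 in 14 h libraries (log2 change 3.18 ± 0.16, adjusted p = 9.05e-05). These abundant genes differed in where they stood at 7 h, the stage at which the labels place the quiescent eggs. The 7 h means, given as a description with no test, were 3070 ± 370 for DN112079_c0_g1 and 1605 ± 170 for DN3582_c1_g1 (SD, n = 5), between the levels of the other groups. They were 189 ± 42.9 for DN23686_c0_g1, 195 ± 38.9 for DN67392_c0_g1 and 44.5 ± 9.28 for DN5982_c0_g2, far below the quiescent values of each.

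Genes matching UAF30 of yeast rose together. In yeast this protein belongs to the factor that recruits RNA polymerase I to ribosomal DNA, and its SWIB domain is shared with chromatin remodelling complexes of animals. The tables hold 11 such genes, of which 10 were tested, 9 rose and 0 fell, and these 9 held under all scalings. They may be pieces of fewer genes and need not be independent, as DN529_c0_g1 and DN529_c5_g1 share part of their identifier. The median log2 change of the 10 was 1.75, against -0.75 for all genes tested. DN108694_c0_g1 had values of 2029, 1712 and 1701 in quiescent libraries, against 424, 343, 484 and 405 in 14 h libraries (log2 change 2.13 ± 0.16, adjusted p = 1.26e-04). DN529_c0_g1, which carries the SWIB domain, had 1339, 2158 and 1970 in quiescent libraries, against 515, 469, 567 and 512 in 14 h libraries (log2 change 1.79 ± 0.19, adjusted p = 3.64e-04). DN2252_c0_g1 had 313, 280 and 269 in quiescent libraries, against 84.9, 43.5, 84.8 and 61.1 in 14 h libraries (log2 change 2.10 ± 0.26, adjusted p = 7.84e-04). In each of the 3 the groups were clear of each other, and the 7 h means were 1373, 1681 and 304. The group was not uniform. DN20787_c0_g1 rose by 2.41 ± 0.67 (adjusted p = 0.0162) with 6.13, 47.7 and 45.1 in quiescent libraries, against 5.99, 3.16, 2.57 and 3.94 in 14 h libraries, so that quiescent library A lay next to the 14 h libraries, and the call was lost without quiescent C or D. DN90193_c0_g1 was not called and had 120, 9.66 and 32.9 in quiescent libraries, against 16.7, 41.1, 59.9 and 28.1 in 14 h libraries (log2 change 0.06 ± 0.79, adjusted p = 0.952). Summed over all 11 genes the value was 4413 to 5163 in quiescent libraries, against 1129 to 1477 in 14 h libraries. The UAF30 matches are among the fungal best matches, whose summed share was 8.30 to 9.20% of all values in quiescent libraries and 3.08 to 3.86% in 14 h libraries. That share largely repeats these 11 genes. Their mean sum was 4816 in quiescent libraries, against 5064 for all fungal matches, and 1289 in 14 h libraries, against 1631.

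Histone genes split. Core histones wrap DNA into nucleosomes, H3.3 is the H3 form placed outside DNA replication, and linker histones bind the DNA between nucleosomes. Of 26 core histone genes in the tables, 12 were tested, 6 rose and 5 fell, with 6 rises and 1 fall held under all scalings. However, 2 of the 12 passed the filter through quiescent libraries alone and 4 through 14 h libraries alone, so these had to differ. Those 4 are all among the 5 falls. The H3 match DN7085_c0_g1 had 286, 263 and 213 in quiescent libraries, against 108, 92.5, 92.4 and 67.8 in 14 h libraries (log2 change 1.49 ± 0.21, adjusted p = 0.00126). The H3.3 match DN2548_c1_g1 had 122, 150 and 126 in quiescent libraries, against 52.6, 42.7, 54.1 and 43.3 in 14 h libraries (log2 change 1.45 ± 0.19, adjusted p = 8.48e-04). In both, each quiescent library was above each 14 h library, and the 7 h means of 216 and 136 were near the quiescent values. The H2A match DN37137_c0_g1 was scarcer, with 2.23, 2.65 and 2.61 in quiescent libraries, against 0.305, 0.255, 0.347 and 0.304 in 14 h libraries (log2 change 1.42 ± 0.13, adjusted p = 2.06e-04). The H3 match DN41657_c0_g1 went the other way, with 1.15, 0.473 and 0.153 in quiescent libraries, against 6.35, 6.12, 7.07 and 5.21 in 14 h libraries, and fell (log2 change -2.22 ± 0.25, adjusted p = 5.52e-04), a fall held under all scalings. Its 7 h mean was 0.0682. The other 4 falls were matches to plant or protist histones, among them DN19100_c0_g1, a plant H2A match with 0.065, 0 and 0 in quiescent libraries, against 1.88, 4.96, 1.99 and 0.555 in 14 h libraries (log2 change -1.55 ± 0.40, adjusted p = 0.0116). Without quiescent A, quiescent C, 14 h A or 14 h C, 3 genes fell. Of 4 linker histones tested, 2 rose: DN3534_c3_g1 with 24.4, 26.9 and 25.5 in quiescent libraries, against 16.9, 11.8, 13.2 and 13.5 in 14 h libraries (log2 change 0.85 ± 0.21, adjusted p = 0.00974), and DN12273_c0_g2 (log2 change 1.04 ± 0.31, adjusted p = 0.0195), whose call was lost without quiescent C.

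Among genes of the cell cycle, cyclin B, which drives entry into mitosis, was represented by 2 tested genes. DN1814_c0_g1 had 5.63, 5.7 and 5.39 in quiescent libraries, against 1.56, 1.11, 1.52 and 1.14 in 14 h libraries and rose (log2 change 1.50 ± 0.18, adjusted p = 6.32e-04). The more abundant DN1292_c0_g1 was not called, with 21.3, 19.6 and 23 in quiescent libraries, against 17.8, 19, 17.2 and 18.7 in 14 h libraries (log2 change 0.22 ± 0.19, adjusted p = 0.322). The cyclin A2 match DN5561_c0_g1, whose product acts in DNA replication and mitosis, was not called either at 5.92, 6.18 and 5.33 in quiescent libraries, against 4.48, 4.24, 4.21 and 4.24 in 14 h libraries (log2 change 0.36 ± 0.18, adjusted p = 0.105), although no quiescent library fell among the 14 h libraries in either gene. In all, 1 of the 5 tested members of this list of 16 rose as deposited, and 5 did after median-ratio rescaling, which called 22.9% of all genes higher. A gene matching the large subunit of ribonucleotide reductase (DN17026_c0_g1), the enzyme that makes the building blocks of DNA, had 5.57, 4.45 and 4.07 in quiescent libraries, against 0.753, 0.69, 0.667 and 0.483 in 14 h libraries and rose (log2 change 1.78 ± 0.17, adjusted p = 2.95e-04). A second match to this subunit, DN4676_c0_g1, was not called at 25.6, 26.9 and 30.5 in quiescent libraries, against 15.6, 18.7, 18.7 and 24.3 in 14 h libraries (log2 change 0.51 ± 0.22, adjusted p = 0.0715). PRPS1 makes the ribose phosphate donor for nucleotide synthesis. Its match DN3310_c0_g1 was nearly constant within each group, with 33.5, 33.7 and 33.6 in quiescent libraries, against 13, 12.6, 12.2 and 12.1 in 14 h libraries (log2 change 1.36 ± 0.18, adjusted p = 0.00103).

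Developmental regulators moved in both directions. Of 11 tested patterning and signal genes 3 rose and 6 fell, and 3 rises but 1 fall held under all scalings. The filter was passed through quiescent libraries alone by 2 of the 11, the Hox and LRP6 matches below. Through 14 h libraries alone it was passed by 4, the SOX11 match and DN28504_c0_g1 included, so the calls of these genes are no support. The Hox gene match DN7672_c0_g1, a homeodomain factor of the kind that sets identity along the body axis, had 1.79, 2.03 and 1.73 in quiescent libraries, against 0.181, 0.161, 0.228 and 0.161 in 14 h libraries and rose (log2 change 1.27 ± 0.11, adjusted p = 2.06e-04), with a 7 h mean of 1.13. DN1045_c0_g1, a match to the Hedgehog receptor Patched 2, rose by 0.79 ± 0.22 and DN3642_c0_g1, a match to the Wnt co-receptor LRP6, by 0.38 ± 0.11. Without quiescent C the list had 1 rise, that of the Hox match, since both receptor calls were lost; the LRP6 call was also lost without 14 h C and the Patched 2 call without quiescent D. SOX11, a factor of neural development in vertebrates, was matched by DN12174_c0_g1, which had 0.056, 0.9 and 0.072 in quiescent libraries, against 2.54, 3.41, 3.74 and 5.09 in 14 h libraries and fell (log2 change -1.84 ± 0.28, adjusted p = 0.00179), though not under all scalings. A Spaetzle-type ligand match (DN28504_c0_g1), of the family that activates Toll receptors, had 0.15, 0.291 and 0.171 in quiescent libraries, against 1.54, 1.49, 2.19 and 3.12 in 14 h libraries and its fall held (log2 change -1.33 ± 0.20, adjusted p = 0.00178). Among 15 tested genes with transcription factor domains 5 rose and 3 fell, the SOX11 match included, and the 5 rises but 0 falls held under all scalings. Here 1 of the 15 passed the filter through quiescent libraries alone and 3 through 14 h libraries alone. A bZIP factor matching DBP (DN906_c0_g1) had 9.26, 11.8 and 10.6 in quiescent libraries, against 2.4, 1.82, 2.28 and 1.84 in 14 h libraries (log2 change 1.91 ± 0.20, adjusted p = 3.31e-04). A match to MEF2 (DN7593_c0_g1), which drives muscle genes, had 8.69, 10.4 and 9.98 in quiescent libraries, against 3.6, 3.65, 3.88 and 3.57 in 14 h libraries (log2 change 1.19 ± 0.19, adjusted p = 0.00183). This count of 5 came to 3 without quiescent C, quiescent D, 14 h A or 14 h C.

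Several enzymes and surface proteins rose alongside. The match to a Drosophila retrotransposon reverse transcriptase, DN5594_c0_g1, had 184, 187 and 159 in quiescent libraries, against 23.5, 13.2, 24.8 and 14.5 in 14 h libraries (log2 change 3.20 ± 0.27, adjusted p = 1.82e-04). Its 7 h mean was 132, nearer to the quiescent than to the 14 h values. DN3637_c0_g1, which matches ADAM29 of a family of membrane-bound metalloprotease-type proteins, had 33.7, 30.8 and 35.2 in quiescent libraries, against 4.11, 4.5, 4.78 and 4.87 in 14 h libraries (log2 change 2.62 ± 0.19, adjusted p = 1.26e-04) and a 7 h mean of 6.31, close to the 14 h level. The 2 groups of values did not overlap in either gene. Lytic polysaccharide monooxygenase domains, found in enzymes that cut chitin or cellulose by oxidation, occurred in DN2498_c0_g1, with 11.1, 12.1 and 12.6 in quiescent libraries, against 0.734, 0.53, 0.292 and 0.349 in 14 h libraries (log2 change 3.14 ± 0.19, adjusted p = 1.17e-04), and in DN227_c1_g1 (log2 change 1.94 ± 0.22, adjusted p = 5.56e-04). With a polysaccharide deacetylase (DN4958_c0_g1, log2 change 1.42 ± 0.15, adjusted p = 3.25e-04) they were the 3 rises among 35 tested genes of chitin binding and turnover. DN2498_c0_g1 and DN4958_c0_g1 passed the filter through quiescent libraries alone. Most calls in this list went the other way: 19 genes fell, 10 without quiescent A, and 5 falls held under all scalings. The 19 falls were a share near that of all genes, with a median log2 change of -0.76 for the list against -0.75. Through 14 h libraries alone 18 of the 35 passed the filter. Of 18 tested genes with a C-type lectin domain, which binds sugars, 3 rose and 14 fell, and 4 falls held under all scalings. Of the 18, 2 passed the filter through quiescent libraries alone and 8 through 14 h libraries alone, and 6, 4, 6 and 7 fell under median-ratio, quantile, TMM and DESeq2 scaling. The leading rise was DN3172_c1_g1, with 28.4, 29.6 and 31.4 in quiescent libraries, against 7.61, 5.67, 7.43 and 5.89 in 14 h libraries (log2 change 2.02 ± 0.21, adjusted p = 3.31e-04), and the leading fall DN9283_c0_g1, with 0.065, 0.236 and 0.494 in quiescent libraries, against 4.97, 4.96, 6.46 and 11.5 in 14 h libraries (log2 change -2.60 ± 0.31, adjusted p = 6.19e-04).

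Of 18 tested membrane transporters 6 rose, all of them under all scalings and whichever library was left out. None of the 7 falls held under all scalings, and they came to 4 without quiescent A, quiescent C, quiescent D or 14 h C. The filter was passed through quiescent libraries alone by 1 of the 18, the TRET1 match below, and through 14 h libraries alone by 2. Those that rose included 3 matches to facilitated glucose transporters. DN18580_c0_g1 had 29.7, 32.4 and 22.2 in quiescent libraries, against 6.61, 9.44, 5.24 and 7.06 in 14 h libraries (log2 change 1.85 ± 0.26, adjusted p = 0.00118), and DN11440_c0_g1 had 30.8, 47 and 41.1 in quiescent libraries, against 15.3, 6.97, 11.7 and 11.4 in 14 h libraries (log2 change 1.74 ± 0.30, adjusted p = 0.00256). DN745_c0_g1 had 6.83, 7.2 and 7.72 in quiescent libraries, against 2.16, 2.3, 2.44 and 2.18 in 14 h libraries (log2 change 1.34 ± 0.18, adjusted p = 9.53e-04), again with the groups apart. Trehalose is a sugar that many resting arthropod stages store, and a match to its transporter TRET1 (DN6987_c0_g1) had 1.23, 1.12 and 1.28 in quiescent libraries, against 0.248, 0.274, 0.247 and 0.34 in 14 h libraries (log2 change 0.79 ± 0.11, adjusted p = 0.00104). A second and more abundant match to a trehalose transporter, DN3806_c0_g1, was not called at 1.43, 2.41 and 1.65 in quiescent libraries, against 2.56, 2.12, 2.4 and 4.12 in 14 h libraries (log2 change -0.41 ± 0.24, adjusted p = 0.153), and its change was positive but not called under the 4 other scalings. A malic enzyme match (DN509_c2_g1), which links the citric acid cycle to pyruvate, rose by 1.27 ± 0.17 (adjusted p = 0.00106). The only gene of the tables listed under hypoxia and anaerobic metabolism did not pass the filter.

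In the redox list 3 of 18 tested genes rose and 8 fell; without quiescent A the falls came to 5. Falls numbered 3, 1, 3 and 3 under median-ratio, quantile, TMM and DESeq2 scaling, and 1 fall and the 3 rises held under all. Through 14 h libraries alone 4 of the 18 passed the filter. Superoxide is removed by copper-zinc superoxide dismutase, whose match DN829_c1_g1 had 8.86, 9.66 and 11.6 in quiescent libraries, against 2.72, 1.78, 2.64 and 2.09 in 14 h libraries (log2 change 1.74 ± 0.21, adjusted p = 6.75e-04). A second match to the same enzyme, DN4253_c0_g1, had 0.262, 0.273 and 0.215 in quiescent libraries, against 1.19, 0.709, 1.4 and 2.15 in 14 h libraries and fell (log2 change -0.88 ± 0.20, adjusted p = 0.0082). That call was kept under median-ratio, TMM and DESeq2 scaling and lost after quantile normalization. Peroxidasin crosslinks the collagen of basement membranes, and its match DN3132_c0_g1 had 8.52, 9.08 and 8.2 in quiescent libraries, against 1.7, 1.61, 1.83 and 1.77 in 14 h libraries (log2 change 1.82 ± 0.17, adjusted p = 2.72e-04). Heat shock proteins, which keep other proteins folded, gave few calls. Of 17 tested HSP70 genes 0 rose and 3 fell as deposited, and no fall held under all scalings; 1 fell without quiescent A, quiescent C, 14 h C or 14 h E. The list's median of -0.43 turned to 0.55, 0.58 and 0.58 after median-ratio rescaling, with TMM and in DESeq2, and was -0.10 after quantile normalization. Of 5 small heat shock proteins 1 rose, DN4793_c21_g1 with 2.25, 1.65 and 2.36 in quiescent libraries, against 1.32, 0.842, 1.02 and 0.447 in 14 h libraries (log2 change 0.71 ± 0.20, adjusted p = 0.0183), a call lost without quiescent A or D, and 2 fell, or 0 without quiescent A.

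**Figure D2:**
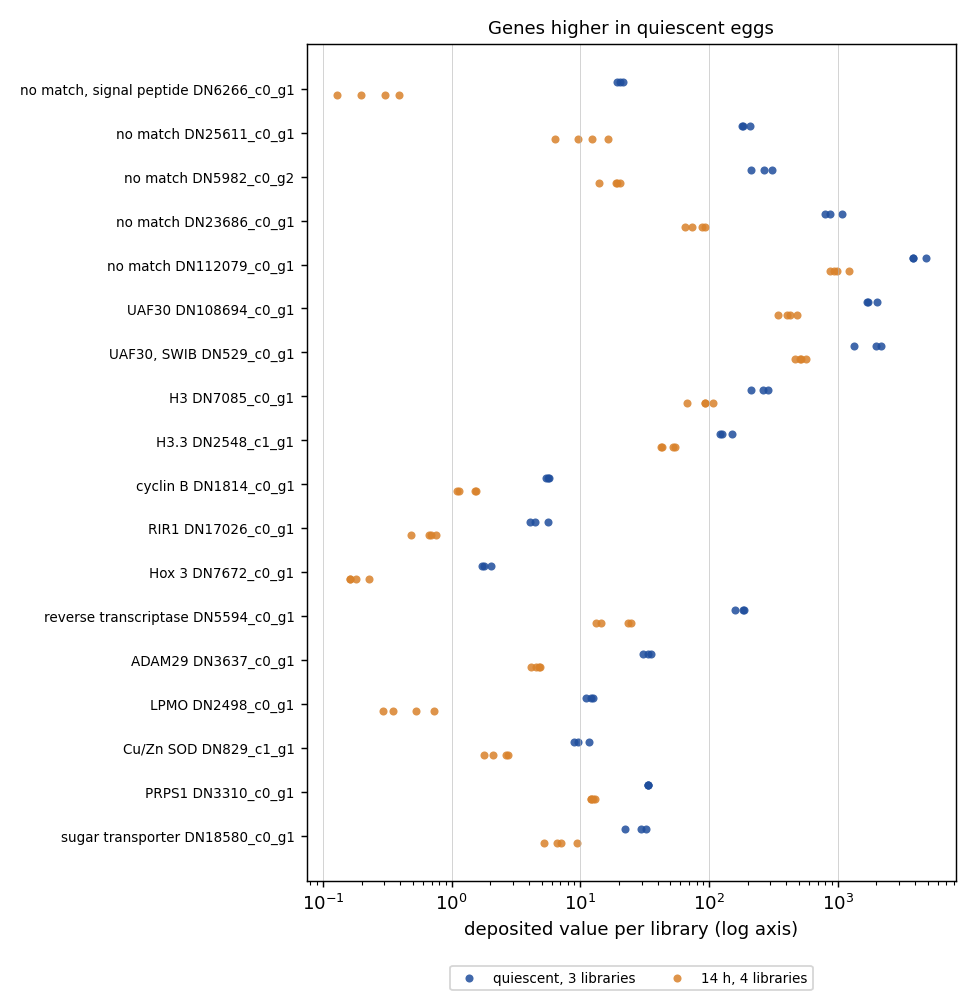
Deposited value per library on a log axis for 18 genes described above, with the 3 quiescent libraries as blue points above the 4 14 h libraries as orange points in each row. In every row the quiescent points lie to the right of the 14 h points without overlap, from DN6266_c0_g1 at the top to the sugar transporter match DN18580_c0_g1.

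Proteases were lower in quiescent eggs. Trypsin-type serine proteases serve digestion, hatching and immune cascades in crustaceans and insects. The tables hold 71, of which 21 were tested and 11 of these passed through 14 h libraries alone; 0 rose, 18 fell and 10 falls held under all scalings. DN10880_c0_g1, a match to crayfish trypsin, had 12, 9.8 and 17 in quiescent libraries, against 123, 118, 172 and 318 in 14 h libraries (log2 change -3.63 ± 0.38, adjusted p = 3.75e-04), so that its 14 h mean was 14.1 times the quiescent mean. DN557_c0_g1, a clip-domain protease match of the kind that activates prophenoloxidase, had 5.98, 7.72 and 12.8 in quiescent libraries, against 38.4, 42.4, 62.7 and 103 in 14 h libraries (log2 change -2.62 ± 0.40, adjusted p = 0.00176). Both groups of values were apart, and the 7 h means of these genes were 5.08 and 2.19. Among 18 tested peptidases of other kinds 1 rose, the ADAM29 match above, and 14 fell, 9 of them under all scalings. Here 8 of the 18 passed the filter through 14 h libraries alone. The cysteine peptidase match DN2972_c0_g1, related to the digestive cathepsins of shrimp, had 1.51, 0.845 and 3.69 in quiescent libraries, against 18.3, 12.9, 24.1 and 41.2 in 14 h libraries (log2 change -3.05 ± 0.46, adjusted p = 0.0016). The MMP2 match DN5811_c0_g1, a gelatinase-type gene with fibronectin type 2 domains, had 1.33, 1.77 and 1.67 in quiescent libraries, against 10.7, 11, 10.9 and 23.5 in 14 h libraries (log2 change -2.46 ± 0.31, adjusted p = 8.10e-04). All 7 tested protease inhibitors fell, but 5 of them passed the filter through 14 h libraries alone, and 1 fall held under all scalings: DN18961_c0_g1, a match to an alpha-2-macroglobulin type inhibitor, with 4.48, 2.93 and 6.1 in quiescent libraries, against 17.7, 20.4, 25.6 and 39.1 in 14 h libraries (log2 change -2.26 ± 0.34, adjusted p = 0.00159).

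Genes of lysosomes and iron storage were lower as well. Of 17 tested lysosome and autophagy genes 0 rose, 13 fell and 7 falls held, and 13 fell whichever library was left out. However, 6 of the 17 passed the filter through 14 h libraries alone, so these had to differ. Saposins help enzymes degrade sphingolipids, and the match DN6205_c0_g1 had 1.08, 0.391 and 1.65 in quiescent libraries, against 8.64, 7.54, 9.61 and 19.2 in 14 h libraries (log2 change -2.55 ± 0.37, adjusted p = 0.00135). NPC2 moves cholesterol out of lysosomes, and its match DN21034_c0_g1 had 1.26, 0.345 and 1.93 in quiescent libraries, against 5.37, 5.83, 9.51 and 16.4 in 14 h libraries (log2 change -2.19 ± 0.43, adjusted p = 0.00426). In each of them every quiescent library lay below every 14 h library, with 14 h E highest. The autophagy receptor p62 was represented by DN4875_c0_g1, which was not called at 23.4, 12 and 18.3 in quiescent libraries, against 12.2, 7.92, 29.6 and 19.4 in 14 h libraries (log2 change 0.15 ± 0.45, adjusted p = 0.766). A second p62 match, DN2169_c0_g1, was not called as deposited at 18.3, 12.5 and 15.5 in quiescent libraries, against 11.7, 8.79, 18.7 and 17.3 in 14 h libraries (log2 change 0.16 ± 0.31, adjusted p = 0.656), but was called higher under median-ratio, TMM and DESeq2 scaling. All 3 ferritins of the tables, which store iron, fell under all scalings. DN8240_c0_g1 had 3.52, 3.56 and 4.56 in quiescent libraries, against 16.1, 12.5, 20.9 and 31.8 in 14 h libraries (log2 change -2.05 ± 0.33, adjusted p = 0.00196). DN3233_c0_g1 and DN4715_c0_g1 fell (log2 changes -1.78 ± 0.25 and -1.69 ± 0.30), and the summed value of the 3 was 8.77 to 11.6 in quiescent libraries, against 30.5 to 65.2 in 14 h libraries. Among lipid genes 8 of 10 tested fell and 2 falls held under all scalings, but 7 of the 10 passed the filter through 14 h libraries alone, including the apolipoprotein D match DN5661_c0_g1 with 0.196, 0.264 and 0.305 in quiescent libraries, against 2.54, 2.1, 2.66 and 6.64 in 14 h libraries (log2 change -1.74 ± 0.32, adjusted p = 0.00321).

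Most muscle genes were lower in quiescent eggs in the values as deposited, and few of these falls held under all scalings. Myosin heavy chain is the motor of the thick filament, and the assembly splits it into 130 genes, which may be pieces of fewer genes and are not independent. Of 102 tested, 77 fell, 1 rose and 15 falls held under all scalings, and without quiescent A 52 fell. Through 14 h libraries alone 12 of the 102 passed the filter. DN21245_c0_g1 had 0.86, 10.2 and 4.03 in quiescent libraries, against 22.5, 26.6, 52.2 and 73.9 in 14 h libraries (log2 change -3.09 ± 0.66, adjusted p = 0.00591). DN7006_c0_g1 had 0.711, 6.17 and 2.79 in quiescent libraries, against 18.7, 16, 41.9 and 57.1 in 14 h libraries (log2 change -3.07 ± 0.60, adjusted p = 0.00446), with quiescent A lowest and 14 h E highest in both genes. The single rise was DN585_c0_g2, with 10.4, 7.31 and 12.3 in quiescent libraries, against 3.46, 3.66, 6.29 and 7.27 in 14 h libraries (log2 change 0.86 ± 0.31, adjusted p = 0.0405), whose call was lost in 5 of the 7 fits that left out a library. Of 29 actins tested 25 fell, 3 of them under all scalings. The most abundant, DN2111_c2_g1, matches an actin of the copepod Calanus finmarchicus and had 200, 243 and 244 in quiescent libraries, against 331, 357, 465 and 697 in 14 h libraries (log2 change -0.95 ± 0.27, adjusted p = 0.0172), a change near the median of all genes. It was not called without quiescent A, and its change was 0.06, 0.04 and 0.04 after median-ratio rescaling, with TMM and in DESeq2. After quantile normalization it was -1.39 and called lower. Of 46 genes of troponin, tropomyosin and other muscle proteins 35 fell as deposited, 18 without quiescent A, 21 without quiescent C, 23 without 14 h C, 3 after median-ratio rescaling (18.7% of all genes fell there) and 3 under all scalings. The list's median of -0.83 turned to 0.01 after median-ratio rescaling, with TMM and in DESeq2, and was -0.35 after quantile normalization. A myosin light chain match (DN2072_c1_g2) was among those that held, with 4.57, 9.41 and 5.49 in quiescent libraries, against 33.6, 26.9, 39.3 and 59 in 14 h libraries (log2 change -2.44 ± 0.34, adjusted p = 0.00121). The troponin T match DN4018_c0_g1 was not called at 59.2, 78.2 and 75.8 in quiescent libraries, against 90.6, 93.2, 143 and 257 in 14 h libraries (log2 change -0.90 ± 0.37, adjusted p = 0.0622), and its change was 0.10, 0.05 and 0.05 under the same 3 scalings. After quantile normalization that change was -0.93, again not called.

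**Figure D3:**
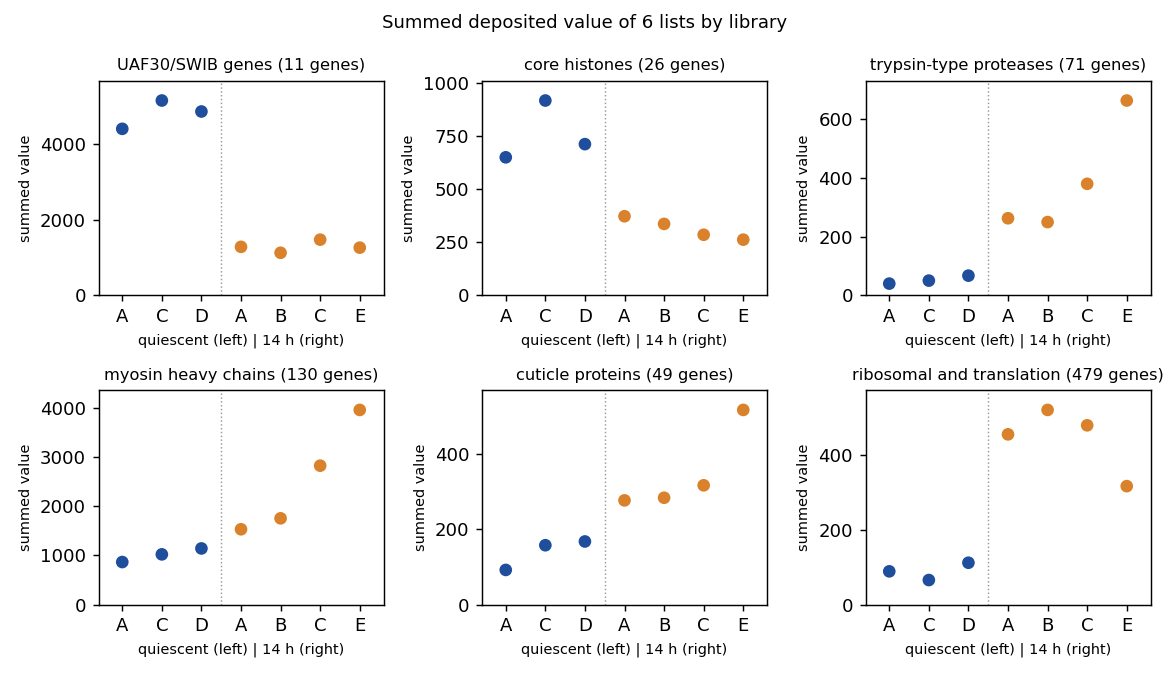
Summed deposited value of all members of 6 lists in each library, with the 3 quiescent libraries (A, C, D) left of the dotted line and the 4 14 h libraries (A, B, C, E) right of it. UAF30/SWIB genes and core histones are higher in each quiescent library, the other 4 lists are lower, and myosin heavy chains run up to 3953 in 14 h E, against 1143 in the highest quiescent library.

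The 14 h libraries differed among themselves in these tissues. Summed over all 130 myosin heavy chain genes the value was 867, 1023 and 1143 in quiescent libraries, against 1532, 1754, 2822 and 3953 in 14 h libraries. Trypsin-type proteases summed to 40.0, 50.2 and 67.1 in quiescent libraries, against 262, 249, 379 and 662 in 14 h libraries. In both lists 14 h A and B lay below C, and C below E, while no quiescent library reached the lowest 14 h library. At 7 h the sums were 1299 ± 258 for myosin and 20.5 ± 11.4 for trypsin-type genes (SD, n = 5), with no test. Letters A and B carry a separate run of sheet numbers in the labels from C, D and E. Within C, D and E alone (quiescent C and D against 14 h C and E), 86 of the 102 myosin genes and 18 of the 21 trypsin-type genes were lower, beside 1159 of all 2737 genes (42.3%).

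Cuticle and nerve genes were mostly lower too as deposited, with few falls held under all scalings, and tubulins were called lower at a share near that of all genes. The median log2 change of cuticle proteins was also near that of all genes, -0.81 against -0.75. After median-ratio rescaling 2 cuticle proteins fell, where 18.7% of all genes fell, and 7 of the 31 tested passed the filter through 14 h libraries alone. Of 31 tested cuticle proteins 21 fell and 0 rose; 9 fell without quiescent A and 1 fall held under all scalings, that of DN6231_c0_g1 with 2.37, 5.33 and 5.12 in quiescent libraries, against 13.7, 15.8, 16.3 and 36.5 in 14 h libraries (log2 change -1.98 ± 0.40, adjusted p = 0.00486). Chitinase 10, which digests old cuticle at the moult in insects, was matched by DN5228_c0_g1, with 0.43, 0.573 and 0.503 in quiescent libraries, against 4.11, 3.49, 5 and 8.68 in 14 h libraries (log2 change -2.01 ± 0.28, adjusted p = 0.00122), and this fall held. A protein with a juvenile hormone binding domain (DN13390_c0_g1) had 0.795, 1.09 and 0.951 in quiescent libraries, against 3.12, 3.2, 4.13 and 6.64 in 14 h libraries (log2 change -1.39 ± 0.26, adjusted p = 0.00344). Of 16 tested neural genes 14 fell and 2 falls held, and 7 of the 16 passed the filter through 14 h libraries alone. A neuronal calcium sensor match (DN6719_c0_g1) had 1.27, 1.64 and 2.02 in quiescent libraries, against 8.68, 7.37, 13 and 15.6 in 14 h libraries (log2 change -2.16 ± 0.29, adjusted p = 0.00106), and a match to the neuropeptide buccalin of molluscs (DN8565_c0_g1) had 0.318, 0.182 and 1.54 in quiescent libraries, against 4.13, 4.87, 6.91 and 11.5 in 14 h libraries (log2 change -2.22 ± 0.39, adjusted p = 0.00294). Of 35 tubulins, the building blocks of microtubules, 19 fell and 1 rose, with a median log2 change of -0.82 against -0.75 for all genes, and 2 falls and the rise held; 11 fell without quiescent A or 14 h C and 12 without quiescent D. The rise was that of DN2495_c3_g1, with 2.37, 3.28 and 3.42 in quiescent libraries, against 0.773, 0.492, 0.63 and 0.733 in 14 h libraries (log2 change 1.27 ± 0.17, adjusted p = 0.00101). The most abundant tubulin, DN2495_c2_g1, was not called at 72.4, 88.2 and 92.4 in quiescent libraries, against 107, 106, 135 and 195 in 14 h libraries (log2 change -0.64 ± 0.25, adjusted p = 0.0541), and its change was 0.36 after median-ratio rescaling, with TMM and in DESeq2. After quantile normalization that change was -0.69, again not called.

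**Figure D4:**
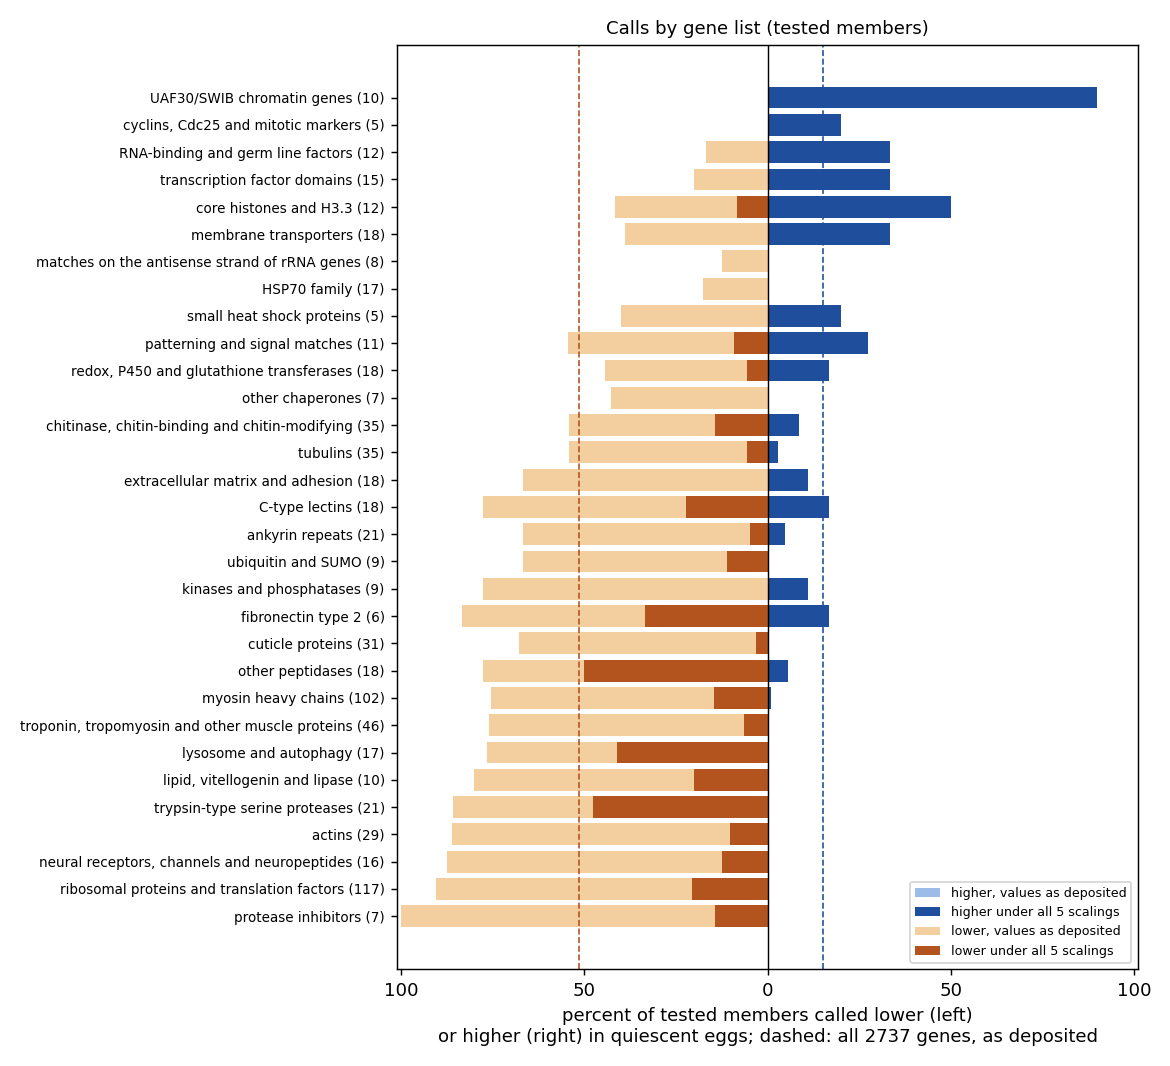
Percent of the tested members of each list called lower (bars to the left) or higher (bars to the right) in quiescent eggs, with the number tested in brackets, for lists with 5 or more tested members. Dark bars are calls under all 5 scalings, and dashed lines mark the 51.4% lower and 15% higher of all 2737 genes; UAF30/SWIB genes stand at the top and protease inhibitors at the bottom.

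Ribosomal proteins and translation factors made up the longest list. Of 479 genes listed, 117 were tested, of which 94 passed through 14 h libraries alone; 106 fell and 0 rose, and 24 falls held under all scalings. The count of falls was 65, 33, 59 and 92 under median-ratio, quantile, TMM and DESeq2 scaling, which called 18.7%, 16.7%, 15.9% and 22.5% of all genes lower. Those with an animal best match numbered 43 tested with 40 falls, and those with a plant, fungal, protist or other match 74 with 66 falls. RL39, a small protein of the large ribosomal subunit, was matched by DN34160_c0_g1 (a fungal entry), with 1.53, 1.53 and 2.6 in quiescent libraries, against 15, 12.4, 19.3 and 11.2 in 14 h libraries (log2 change -2.42 ± 0.26, adjusted p = 4.47e-04). RS30, of the small subunit, was matched by DN15684_c0_g1 (a plant entry), with 0.823, 0.609 and 0.718 in quiescent libraries, against 12, 6.68, 9.62 and 5.76 in 14 h libraries (log2 change -2.43 ± 0.27, adjusted p = 5.00e-04). Their groups were far apart, and the 7 h means were 1.68 and 0.863. Levels of best matches to other organisms moved with the groups. All plant or algal best matches together, 448 genes, took 0.307 to 0.354% of the summed values in quiescent libraries, against 1.08 to 1.57% in 14 h libraries. Protist matches, 219 genes, took 0.172 to 0.214% in quiescent libraries, against 0.480 to 0.675% in 14 h libraries. Animal matches, 3126 genes, took 7.78 to 9.73% in quiescent libraries, against 14.2 to 27.2% in 14 h libraries. The part of other organisms in these falls was not tested.

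**Figure D5:**
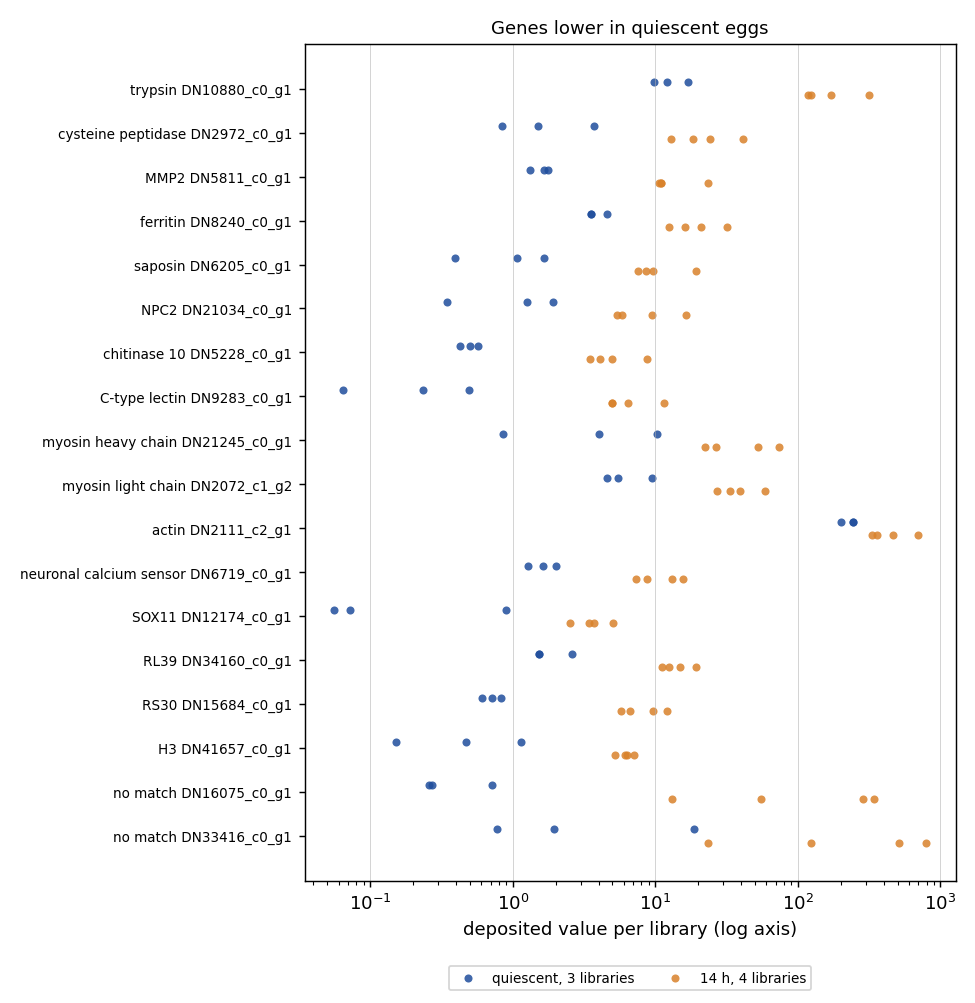
Deposited value per library on a log axis for 18 genes, with the 3 quiescent libraries as blue points above the 4 14 h libraries as orange points in each row. The quiescent points lie to the left of the 14 h points in each row, and the 2 genes without a match at the bottom spread from 13.2 to 341 and from 23.6 to 791 among 14 h libraries.

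The largest falls of all were in genes without a match that varied widely within the 14 h group. DN16075_c0_g1 had 0.72, 0.273 and 0.26 in quiescent libraries, against 287, 341, 54.8 and 13.2 in 14 h libraries (log2 change -6.07 ± 1.06, adjusted p = 0.00276). DN11789_c1_g1 had 0, 0.818 and 1.79 in quiescent libraries, against 270, 340, 66.7 and 16 in 14 h libraries (log2 change -5.89 ± 1.02, adjusted p = 0.00272), and DN33416_c0_g1 had 18.6, 1.94 and 0.772 in quiescent libraries, against 513, 791, 123 and 23.6 in 14 h libraries (log2 change -5.33 ± 1.31, adjusted p = 0.01). In all 3 the quiescent libraries were lower, but 14 h A and B exceeded C, and C exceeded E, and for DN11789_c1_g1 the log2 change was -8.25 within letters A and B alone and -3.91 within C, D and E alone. Letters A and B hold only 1 quiescent library, quiescent A, in which this gene was at 0. The pattern recurred in 132 tested genes (4.82%) in which 14 h A and B both exceeded 14 h C and E by over 1 on the log2 scale; 29 of them were called lower, 0 higher and 103 were not called. The opposite order, A and B below C and E by as much, was found in 35 genes, of which 19 were lower and 1 higher in quiescent eggs. Genes off in 1 group were rare. With at most 3 reads in each library of one group and a value of 1 or more in each of the other, 1 gene qualified: DN7893_c0_g1, a signal peptide gene without a match, had 0 in the 3 quiescent libraries, against 5.26, 14.6, 6.87 and 10.1 in 14 h libraries (adjusted p = 2.97e-04). No gene was off in this way at 14 h and on in quiescent eggs.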

How the data were processed

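RNA of assemblages of eggs was sequenced, and 7 libraries of the 26 in the series were used here (quiescent, n = 3; 14 h, n = 4). The deposited unit is a normalized signal value per assembled gene, made by the authors. Bcl2fastq and edgeR are named in the submitters' processing notes; for the aligner, counter and scaling nothing is given in the sources used here. Both tables hold genes that the authors selected at an alpha of 0.001 and a fold of 2, per the labels. In each library the deposited values were whole multiples of 1 read for 100% of values up to 2000 reads, within 0.1 of a step, so reads could be recovered.

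The 2 tables were joined and genes with a value of 1 or more in at least 3 of the 7 libraries were tested with limma 3.58.1 in R 4.3.3 on log2(value + 1), with trend and robust settings, 2-sided, and Benjamini-Hochberg adjustment over all 2737 genes. Log2 changes are quiescent minus 14 h ± SE on that scale, which understates the change of low genes. The count test, edgeR 4.0.16 on recovered reads, called 385 genes higher and 1324 lower at the deposited scaling and 592 and 435 with TMM; DESeq2 1.42.0 was also run. The same code was tested on simulated data. Further alternatives changed the pseudocount, filter, scaling, spread, table, block, letter set and the libraries included. Quiescent libraries held 5916286 to 6401549 reads in tested genes and 14 h libraries 4831887 to 5205340.

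Gene names are the protein matches and domains in the assembly identifiers. Named genes were the 15 largest changes per direction among matched genes with groups apart, up to 4 called genes per direction and 2 not called of each list, the 5 largest without a match, the 10 most abundant called genes per direction and genes off in 1 group, with repeats left out. The members and lists were chosen with earlier results of these data known.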

Additional observations from a re-analysis of the deposited data

Results flagged for a closer look

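Among the 89 genes named in the text, 5 (5.62%) had a 14 h library set apart from the other 3 of its group by Dixon's criterion, and chance flags about 1 in 20 such groups. In 4 of them the library was 14 h E. It was the highest of the group for the MMP2 match DN5811_c0_g1 at 23.5, for the apolipoprotein D match DN5661_c0_g1 at 6.64 and for the cuticle protein DN6231_c0_g1 at 36.5, and the lowest for the polysaccharide deacetylase DN4958_c0_g1 at 0.376. In the cyclin A2 match DN5561_c0_g1 the library was 14 h A, the highest at 4.48.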

How the results depend on the processing

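Of the 411 rises and 1407 falls, the count of falls moved most. It was 687 with the spread of all 26 libraries, 3663 with no filter (where low genes enter the test) and 730 in the quiescent table alone, with 232 rises there. A value of 5 in 3 libraries left 254 rises and 472 falls. Scaling gave 627 rises and 513 falls with median-ratio factors, 657 and 615 in DESeq2, 457 falls after quantile normalization and 435 with edgeR and TMM; the cause of these shifts was not tested. Leaving out 1 library gave 367 to 406 rises and 992 to 1389 falls. Other pseudocounts, edgeR at the deposited scaling, limma without trend and robust settings, and the letter sets kept both counts within 1.5 times.

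The replicate block, with the letters A and C shared by both groups, called 303 genes higher and 986 lower. The labels do not say that letters pair the samples. Deviations from the group mean correlated at 0.349 between the A libraries and at -0.077 between the C libraries, so the block is shown as an alternative. Under the block 11 of the named genes lost their call, among them DN2111_c2_g1, DN3534_c3_g1 and DN20787_c0_g1.

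Signs turned in 7 named genes. The log2 change of the actin DN2111_c2_g1 was 0.06, 0.04 and 0.04 with median-ratio factors, TMM and DESeq2, that of the tubulin DN2495_c2_g1 0.36 in each, and that of the troponin T match DN4018_c0_g1 0.10, 0.05 and 0.05. After quantile normalization these genes stayed lower, at -1.39, -0.69 and -0.93 in the same order. The p62 match DN4875_c0_g1, not called, was at -0.17 under the block, -0.66 within letters C, D and E, -0.05 without quiescent A, and over the fits that left out a library it ran from -0.14 (without 14 h B) to 0.45 (without 14 h C). The second p62 match DN2169_c0_g1, not called, was at -0.35 within letters C, D and E and ran from -0.03 (without 14 h B) to 0.30 (without 14 h C). The trehalose transporter match DN3806_c0_g1, not called, was at 0.29, 0.23, 0.43 and 0.43 under median-ratio, quantile, TMM and DESeq2 scaling. The UAF30 match DN90193_c0_g1, not called, was at -1.15 within letters C, D and E, -0.26 without 14 h A and -0.02 without 14 h E, and ran from -0.83 (without quiescent A) to 0.92 (without quiescent C). A value of 1 stands for over 100 reads, so counting error is small for most tested genes, and the number of libraries limits the precision.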

Other observations

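RNA-binding and germ line factors, which process, store or silence RNA in early embryos, moved in both directions. Of 25 genes listed, 12 were tested, 4 rose and 2 fell, and the 4 rises but neither fall held under all scalings, while 2 of the 12 passed the filter through quiescent libraries alone. The Argonaute match DN9335_c0_g1, of the family that silences RNA with small RNA guides, had 1.09, 1.29 and 1.13 in quiescent libraries, against 0.448, 0.255, 0.347 and 0.322 in 14 h libraries (log2 change 0.69 ± 0.11, adjusted p = 0.0022, limma) and a 7 h mean of 0.341. The zinc knuckle gene DN699_c0_g1 had 5.74, 6.88 and 6.51 in quiescent libraries, against 1.73, 1.56, 1.44 and 1.26 in 14 h libraries (log2 change 1.56 ± 0.18, adjusted p = 5.59e-04, limma). Both groups of values were apart in each gene. SNW1 acts in splicing, and its match DN16583_c0_g1 had 12.7, 13.4 and 14.2 in quiescent libraries, against 8.3, 6.42, 8.7 and 7.1 in 14 h libraries (log2 change 0.75 ± 0.21, adjusted p = 0.0148, limma). DN10552_c0_g1, a match to the Drosophila piRNA pathway protein Asterix, had 1.5, 1.25 and 1.57 in quiescent libraries, against 0.773, 0.946, 0.849 and 0.635 in 14 h libraries (log2 change 0.44 ± 0.14, adjusted p = 0.0244, limma), a call kept in 3 of the 7 fits that left out a library. The count of rises came to 2 without quiescent D, where the SNW1 call was lost as well. The 2 falls were less steady, and their count was 0 or 1 in every fit that left out a library.

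Kinases and phosphatases were mostly lower as deposited. Of 9 tested genes 1 rose and 7 fell, no fall under all scalings and 2 falls without quiescent A. The list's median log2 change of -0.53 was above the -0.75 of all genes tested. Falls numbered 0, 1, 0 and 0 under median-ratio, quantile, TMM and DESeq2 scaling. The filter was passed through 14 h libraries alone by 3 of the 9, and through quiescent libraries alone by 1, the gene that rose, so its call is no support. The PIM1 kinase match DN4267_c0_g1 had 3.74, 4.17 and 5.41 in quiescent libraries, against 9.43, 9.65, 13.4 and 19.5 in 14 h libraries (log2 change -1.32 ± 0.30, adjusted p = 0.00741, limma), with 14 h E highest. The rise was that of a ribosomal S6 kinase match, DN13291_c0_g1, with 1.07, 1.16 and 1.32 in quiescent libraries, against 0.725, 0.473, 0.384 and 0.635 in 14 h libraries (log2 change 0.49 ± 0.13, adjusted p = 0.0141, limma), and it held under all scalings.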
